A study of Mus musculus with 6 samples.

Results

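The genes described here carry out glycolysis or respond to low oxygen through hypoxia-inducible factor (HIF), and they were measured in mouse bone marrow. They were taken by symbol from a fixed list of 32 genes, all of which were matched among the 49315 gene identifiers of the count table. The list holds 16 glycolytic enzymes including lactate dehydrogenase A, 3 transporters of glucose or lactate, 3 regulators of glycolytic flux, 9 other HIF targets and Hif1a, the oxygen-regulated HIF subunit. KO libraries (replicates 2, 3 and 4) came from miR-181a2b2-/- animals, and WT libraries (replicates 1, 3 and 4) from miR-181a2b2flox/flox animals, which carry the floxed allele. Both groups received the HFSC diet and hindlimb ischemia, a surgical loss of blood flow to a leg. The labels used here do not say how the floxed allele was deleted, in which cells, or the age or sex of the animals, and no label ties each library to an animal of its own. The p-values therefore measure the spread between these libraries, which may be technical.

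Total counts lay between 33861440 and 39566582 in the KO libraries and between 34000323 and 40359093 in the WT libraries. Levels are given in CPM, counts scaled to a common library total after correction of each total by its trimmed-mean (TMM) factor. Xist exceeded 1 CPM in KO replicate 2 and in WT replicates 3 and 4, and in no other library. The labels name bone marrow as the source, although the extraction text names white adipose tissue. All 10 neutrophil granule markers examined were detected, with sums of 72540, 66100 and 81220 CPM in KO replicates 2, 3 and 4 and of 44270, 57330 and 46110 CPM in WT replicates 1, 3 and 4. The 7 adipocyte markers summed to between 24.8 and 40.8 CPM in KO and between 17.2 and 27.1 CPM in WT. Fabp4 held most of this, between 18.7 and 33.8 CPM in KO and between 13.2 and 20.9 CPM in WT. Adipoq lay between 4.39 and 6.62 CPM in KO and between 2.70 and 4.77 CPM in WT, and Lep and Plin1 were at or near 0. These were bulk measurements, in which fewer cells of a type and less RNA per cell cannot be told apart.

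Glycolysis splits glucose into pyruvate and is the main source of ATP in neutrophils, which hold few active mitochondria. Its preparatory steps phosphorylate and cleave the sugar, and its pay-off steps harvest ATP and end in pyruvate, which lactate dehydrogenase turns into lactate. When oxygen is scarce the prolyl hydroxylases EGLN1 to EGLN3 no longer mark HIF-1alpha for destruction, and the stabilised factor induces glycolytic enzymes, glucose transporters and genes such as Bnip3 and Ankrd37. Marrow is a low-oxygen tissue even at rest.

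No member passed the test across all genes, but most of the abundant glycolytic enzymes stood at similar, modestly higher levels in the KO libraries. Counts were compared with edgeR's quasi-likelihood test, with Benjamini-Hochberg adjustment over the 16956 genes tested and a threshold of 0.05. Of the 32 members 31 passed the filter on low counts, and Adm, which encodes the vasodilator peptide adrenomedullin, did not. In edgeR 0 of the 31 were called in either direction, beside 0.938% of all genes called higher and 1.52% called lower in KO. With an unadjusted p under 0.05 there were 13 of 31 higher and 1 lower, beside 11.7% and 12.2% of all genes. The KO libraries all lay above the WT libraries for 11 of 31 members and all below for 2, beside 14.4% and 14.7% of all genes. Members called by DESeq2 were 7 enzymes higher and 1 lower, beside 6.59% and 6.03% of the 13007 genes to which it gave an adjusted p. By limma 4 enzymes were called higher and 1 lower, beside 2.92% and 3.31% of all genes. The log2 fold change (KO over WT) was positive for 25 of 31 members, with a median of 0.27, whereas 48.9% of all genes tested were positive, with a median of -0.01.

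Neutrophil lineage markers also stood higher in the KO libraries. The sum of the 16 enzymes was 7467, 8574 and 9015 CPM in KO replicates 2, 3 and 4, against 6334, 7007 and 6216 CPM in WT replicates 1, 3 and 4. All 10 neutrophil granule markers and all 5 promyelocyte markers had positive log2 fold changes, and 2 of each list were called higher. The promyelocyte markers summed to 5567, 6523 and 6782 CPM in KO and to 4663, 4502 and 4783 CPM in WT. Erythroid markers (9 matched of 10 listed) summed to between 13260 and 24260 CPM in KO and between 13690 and 32390 CPM in WT, with overlap between the groups. The log2 fold changes of all 9 were negative (median -0.37). In edgeR 0 of the 9 were called and 2 were lower at an unadjusted p under 0.05, beside 12.2% of all genes. Of 14 immediate early genes 12 were called lower, with sums between 2368 and 3284 CPM in KO and between 5659 and 7191 CPM in WT. B cell markers had negative log2 fold changes for 7 of 7 (median -0.79), with sums between 97.4 and 306 CPM in KO and between 242 and 379 CPM in WT, and megakaryocyte and platelet markers positive ones for 5 of 5 (median 0.60), with sums between 227 and 471 CPM in KO and between 215 and 343 CPM in WT. None of these 12 genes was called in edgeR, and 1 B cell marker was lower at an unadjusted p under 0.05. Of 7 monocyte and macrophage markers Ly6c2 was called higher and Siglec1 lower (edgeR adjusted p = 0.0474 and 0.0103). Adipocyte markers had positive log2 fold changes for 4 of 4 tested (median 0.56), with 0 called in edgeR. The part of these markers in the enzyme levels was not tested.

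Levels along the pathway were compared per kilobase of annotated exon, which allows genes of different lengths to be set side by side. Pkm and Gapdh stood highest, with means over the 6 libraries of 299.5 and 287.5 CPM per kb, followed by Aldoa at 230.7 CPM per kb, and the ranges of these neighbours overlapped. Gpi1, Eno1, Pgk1, Ldha and Hk3 followed, between 168 and 136 CPM per kb, each overlapping the next. Below Hk3 came a gap: its lowest library, at 107.3 CPM per kb, stood just above the highest library of Bnip3l, at 107.1 CPM per kb. The 3 phosphofructokinase genes, whose enzyme commits sugar to glycolysis, together reached only 24.7 ± 1.67 CPM per kb in KO and 26.1 ± 1.67 CPM per kb in WT (SD, n = 3 each), the lowest sum of any enzyme step. At the bottom of the list were Ankrd37, Aldoc, Adm and P4ha2, with means between 1.398 and 0.0683 CPM per kb. Exon length here joins all annotated transcripts, so a gene with long rare exons, such as Pfkp with 13401 bases, may be placed too low.

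**Figure D1:**
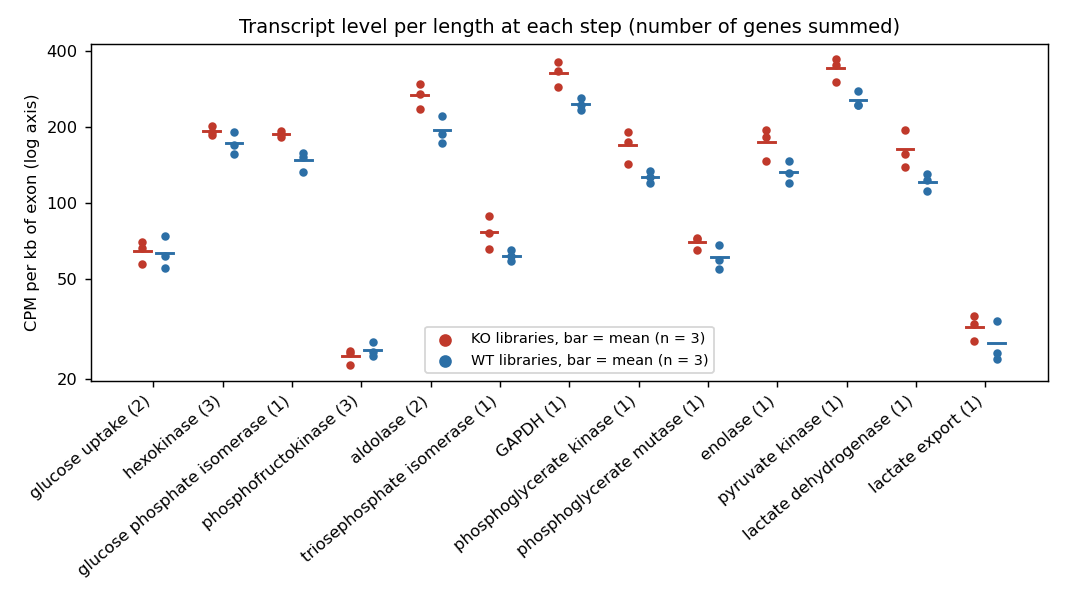
Transcript level per kilobase of exon (CPM per kb, log axis) at each step from glucose uptake to lactate export, with points for libraries, bars for means, and the number of genes summed in brackets. Phosphofructokinase is the lowest enzyme step at 24.7 CPM per kb in KO and 26.1 in WT, and aldolase (268 in KO and 194 in WT) and pyruvate kinase (343 in KO and 256 in WT) show no overlap between groups.

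In the preparatory steps the members went different ways. Aldoa, the aldolase that cleaves the phosphorylated sugar (chr7:126795234-126800751, GRCm38, as are all gene positions here), had 688, 787 and 862 CPM in KO replicates 2, 3 and 4, against 547, 642 and 503 CPM in WT replicates 1, 3 and 4. All KO libraries lay above all WT libraries, with a log2 fold change of 0.47 ± 0.13 (SE) and a 95% interval from 0.18 to 0.75 (edgeR adjusted p = 0.0805). Gpi1, glucose phosphate isomerase (chr7:34201330-34230336), had 1185, 1252 and 1215 CPM in KO and 861, 1021 and 984 CPM in WT. Its KO libraries were close together and all above WT (log2 fold change 0.35 ± 0.11, edgeR adjusted p = 0.0977). Tpi1, triosephosphate isomerase (chr6:124810586-124814296), had 181.9, 209 and 245 CPM in KO and 178.8, 169.9 and 162 CPM in WT. The groups did not overlap, but KO replicate 2 exceeded WT replicate 1 by only a few CPM (log2 fold change 0.32 ± 0.12, edgeR adjusted p = 0.142).

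Pfkm, the muscle-type phosphofructokinase subunit, which is also made in red cells, lay the other way (chr15:98092589-98132451). It had 29.4, 27.3 and 26.7 CPM in KO replicates 2, 3 and 4, against 41.0, 33.1 and 41.0 CPM in WT replicates 1, 3 and 4. All KO libraries lay below all WT libraries, with a log2 fold change of -0.47 ± 0.11 (SE), a 95% interval from -0.70 to -0.23, and the smallest p of any member (edgeR adjusted p = 0.0541). It passed the threshold in DESeq2 (adjusted p = 0.00785), in limma (adjusted p = 0.0346) and in edgeR without WT replicate 3 (adjusted p = 0.0456), and over all alternatives its adjusted p ran from 0.0029 to 0.199. Skeletal muscle markers, 11 in number and none at 0 in every library, summed to 18.7, 12.3 and 11.3 CPM in KO and to 23.1, 15.0 and 23.1 CPM in WT. Erythroid markers summed to 24260, 13260 and 16190 CPM in the same KO libraries and to 32390, 13690 and 23760 CPM in the same WT libraries. Of its exon bases 341 are shared with Gm26513 on the same strand. Both marker sums and Pfkm had their lowest WT value in replicate 3. KO replicate 2 lay above WT replicate 3 in both marker sums and below it in Pfkm. The part of these markers in the Pfkm difference was not tested.

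The liver-type and platelet-type subunits lay nearer to 0. Pfkl lay between 62.0 and 75.8 CPM in KO and between 55.4 and 64.2 CPM in WT (log2 fold change 0.22 ± 0.10, edgeR adjusted p = 0.219). Pfkp lay between 62.3 and 88.3 CPM in KO and between 67.0 and 81.9 CPM in WT (log2 fold change 0.06 ± 0.14). The sign for Pfkp turned under 5 of 16 alternatives, and 748 of its exon bases are shared with Pitrm1 on the opposite strand. Among the hexokinases, which trap glucose in the cell, Hk3 was by far the most abundant and is the form typical of myeloid cells. It had 522, 566 and 552 CPM in KO and 395, 523.5 and 441 CPM in WT, so that KO replicate 2 and WT replicate 3 overlapped (log2 fold change 0.27 ± 0.12, edgeR adjusted p = 0.203). Hk1 and Hk2 had log2 fold changes of -0.12 ± 0.09 and -0.16 ± 0.10 (edgeR adjusted p = 0.469 and 0.333), and Aldoc, a brain-type aldolase, never exceeded 3.603 CPM.

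**Figure D2:**
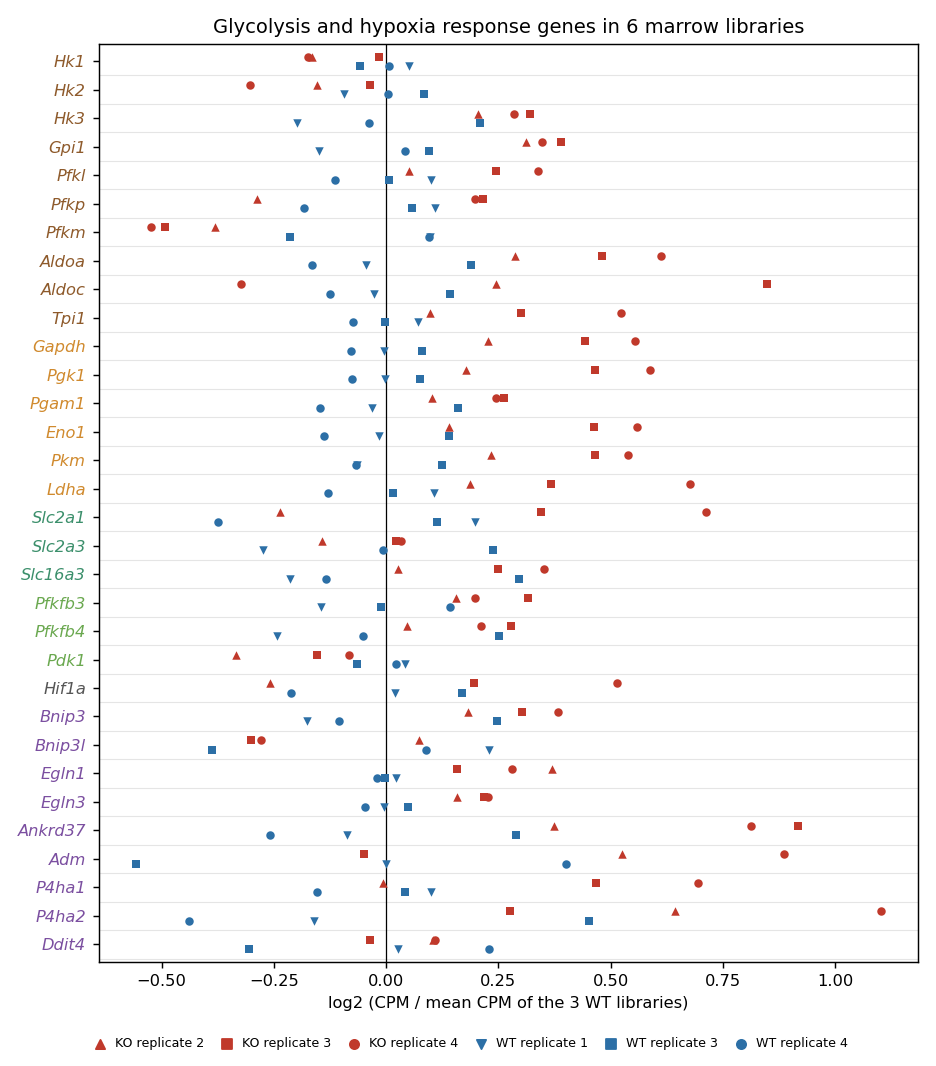
Each gene's CPM in each library, as log2 of the ratio to the mean of the 3 WT libraries (horizontal axis), with KO libraries (red) above WT libraries (blue) in each row and symbols for replicate numbers. For Aldoa, Gapdh, Pgk1, Pkm and Ldha all KO points lie to the right of all WT points, with KO replicate 2 nearest to WT, and for Pfkm all KO points lie to the left.

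The pay-off enzymes stood together. Gapdh, which makes the high-energy phosphate bond (chr6:125161715-125166467), had 1192, 1385 and 1496 CPM in KO replicates 2, 3 and 4, against 1016, 1076 and 965 CPM in WT replicates 1, 3 and 4. Pgk1, the kinase that harvests it as ATP (chrX:106187100-106203699), had 322.5, 393.5 and 428.5 CPM in KO and 285, 300.5 and 270.5 CPM in WT. Pkm, pyruvate kinase (chr9:59656368-59679375), had 1508, 1771 and 1862 CPM in KO and 1226, 1397 and 1224 CPM in WT. None of these 3 genes overlapped between groups, with log2 fold changes of 0.41 ± 0.12, 0.42 ± 0.12 and 0.42 ± 0.12 (edgeR adjusted p = 0.0826, 0.0848 and 0.0854). For Pgk1 it was 0.53 without KO replicate 2 (edgeR adjusted p = 0.0392) and 0.33 without KO replicate 4 (edgeR adjusted p = 0.292), and over all alternatives its adjusted p ran from 0.0137 to 0.292. Ldha, which regenerates NAD by making lactate (chr7:46841475-46855627), had 459, 519.8 and 645 CPM in KO and 434, 407.5 and 368 CPM in WT. It too did not overlap, at a log2 fold change of 0.42 ± 0.14 (edgeR adjusted p = 0.109).

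Eno1, enolase (chr4:150236721-150248879), had 788, 986 and 1053 CPM in KO replicates 2, 3 and 4 and 708, 788.5 and 650 CPM in WT replicates 1, 3 and 4. KO replicate 2 and WT replicate 3 were level, and the log2 fold change was 0.40 ± 0.13 (edgeR adjusted p = 0.119). Pgam1, phosphoglycerate mutase, lay between 129.5 and 145 CPM in KO and between 109 and 135 CPM in WT (log2 fold change 0.20 ± 0.10, edgeR adjusted p = 0.253). All 6 pay-off enzymes thus had positive log2 fold changes, from 0.20 to 0.42, with a median of 0.42. Within the KO group replicate 2 was the lowest library for all 6, and within WT replicate 4 was the lowest for all 6. Both of these libraries had Xist above 1 CPM, as did WT replicate 3, which was the highest WT library for 5 of the 6. Many of these genes have near-identical processed copies in the genome. The 8 copies that carry a parent's name summed to at most 2.08 CPM in any library, and how reads that match several places were treated is not stated in the labels. Of the exon bases of Pkm 767 are shared with Gm49759 on the same strand.

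The letters upstream of these genes were read because many glycolytic enzymes are textbook HIF targets. The windows run from 250 bases before to 50 after a RefSeq transcript start (GRCm38.p6), and the motif searched was the HIF core, ACGTG or GCGTG on either strand. The set shows Ldha, Pgk1 and Gapdh from the pay-off steps and Bnip3 from the other HIF targets, with matches in capitals.
Ldha, chr7:46845554-46845853, plus strand: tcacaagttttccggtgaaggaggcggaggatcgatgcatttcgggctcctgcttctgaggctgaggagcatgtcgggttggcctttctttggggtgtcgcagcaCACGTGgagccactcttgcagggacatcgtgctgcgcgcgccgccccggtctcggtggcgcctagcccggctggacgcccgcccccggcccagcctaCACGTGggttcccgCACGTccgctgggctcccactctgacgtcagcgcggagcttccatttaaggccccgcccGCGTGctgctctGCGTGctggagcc
Pgk1, chrX:106186850-106187149, plus strand: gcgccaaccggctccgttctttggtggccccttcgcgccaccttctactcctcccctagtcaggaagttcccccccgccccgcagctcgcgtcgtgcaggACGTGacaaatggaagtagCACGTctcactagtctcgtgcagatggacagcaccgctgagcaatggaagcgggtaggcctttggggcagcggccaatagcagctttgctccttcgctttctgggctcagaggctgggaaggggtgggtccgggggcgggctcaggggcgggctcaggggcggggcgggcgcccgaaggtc
Gapdh, chr6:125165724-125166023, minus strand: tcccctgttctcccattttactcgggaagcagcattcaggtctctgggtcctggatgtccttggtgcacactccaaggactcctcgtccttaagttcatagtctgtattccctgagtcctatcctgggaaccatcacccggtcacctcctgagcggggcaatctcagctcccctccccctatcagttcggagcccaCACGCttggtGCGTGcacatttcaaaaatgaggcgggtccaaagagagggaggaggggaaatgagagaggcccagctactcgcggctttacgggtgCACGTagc
Bnip3, chr7:138909457-138909756, minus strand: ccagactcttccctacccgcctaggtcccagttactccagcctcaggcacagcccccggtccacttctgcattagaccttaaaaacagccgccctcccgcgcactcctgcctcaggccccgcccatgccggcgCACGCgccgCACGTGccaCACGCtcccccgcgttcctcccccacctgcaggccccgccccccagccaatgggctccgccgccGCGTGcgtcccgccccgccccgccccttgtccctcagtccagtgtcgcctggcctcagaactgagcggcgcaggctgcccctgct
The Ldha window holds 5 separate stretches of capitals, the Bnip3 window 4, the Gapdh window 3 and the Pgk1 window 2. In Ldha 2 of the stretches, and in Bnip3 1, are the palindrome CACGTG, a general E-box in which the HIF core overlaps the sites of other factors. A window was found for 30 members, all but Slc2a3 and Bnip3l. A match was present for 28 of 30 members (93.3%), for 14 of 16 enzymes (87.5%) and for 8 of 8 other HIF targets. The share over all genes with a window was 46.7%, and over the genes tested here it was 64.7%. A gene with several windows counted as matched if any of them held a match. Per window the share was 83.7% for members and 77.8% for enzymes, beside 43.8% over all windows. The members had a median of 21 CpG dinucleotides per window and the genes tested 19. Tpi1 and Gpi1, each read in a single window, were the enzymes without a match. Whether a match goes with the log2 fold change was not tested. A match is a run of letters and does not show binding.

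Isoenzyme shares give the balance within a family in each library, independent of library scaling. Among the hexokinases Hk3 made up 76.2%, 75.9% and 77.9% of the family's CPM per kb in KO replicates 2, 3 and 4, against 68.4%, 74.1% and 70.6% in WT replicates 1, 3 and 4. Pfkm made up 38.7%, 32.1% and 30.9% of the phosphofructokinases in KO and 43.8%, 39.9% and 48.0% in WT. Pfkl made up 40.8%, 41.9% and 43.9% in KO and 34.3%, 36.3% and 32.5% in WT. In both families the groups did not overlap for these genes. The means differed by 5.58 percentage points for Hk3, -9.99 for Pfkm and 7.86 for Pfkl (exact permutation test, two-sided, p = 0.1 each, the smallest that 3 against 3 libraries allow, adjusted p = 0.18 over 9 shares). Aldoa held 99.7% of aldolase in both groups, and Egln1 held 62.5% of the summed Egln1 and Egln3 in KO and 61.4% in WT (exact permutation p = 0.5). Without scaling by exon length the order of the phosphofructokinases changes, since Pfkp then exceeds Pfkm.

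**Figure D3:**
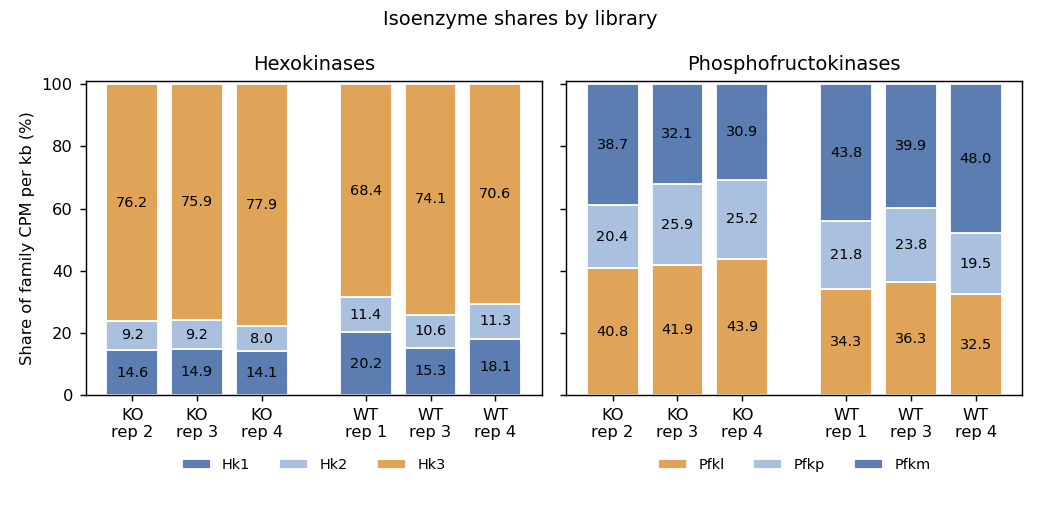
Share of each isoenzyme in its family's summed CPM per kb (percent, bars from 0) for each library, KO on the left and WT on the right of each panel. Hk3 lies between 75.9% and 77.9% in KO and between 68.4% and 74.1% in WT, and Pfkm between 30.9% and 38.7% in KO and between 39.9% and 48.0% in WT.

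None of the 3 glucose and lactate transporters was called. Slc16a3, the lactate exporter MCT4, had the smallest p of the transporters and 151, 176 and 189 CPM in KO replicates 2, 3 and 4, against 128, 182 and 135 CPM in WT replicates 1, 3 and 4. WT replicate 3 lay within the KO range, and the log2 fold change was 0.21 ± 0.14 (edgeR adjusted p = 0.393). Slc2a3, the high-affinity glucose transporter GLUT3, was the more abundant glucose transporter of the list per length, and its level lay between 365 and 412 CPM in KO and between 333 and 475 CPM in WT. Its log2 fold change was -0.03 ± 0.13, with a 95% interval from -0.33 to 0.27. That interval overlapped those of Ldha, Pgk1, Pkm, Gapdh and Eno1, which began between 0.10 and 0.15. The difference from these enzymes was not tested. Slc2a1, GLUT1, lay between 23.7 and 45.8 CPM in KO and between 21.6 and 32.01 CPM in WT. Its interval, from -0.28 to 0.93, was the widest among the transporters and flux regulators.

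Flux regulators were not called either. Pfkfb3, which makes the activator of phosphofructokinase, had 107, 119.5 and 110 CPM in KO replicates 2, 3 and 4, against 86.8, 95.2 and 106 CPM in WT replicates 1, 3 and 4. The groups touched without overlapping, at a log2 fold change of 0.22 ± 0.10 (edgeR adjusted p = 0.198). Its relative Pfkfb4 had a log2 fold change of 0.18 ± 0.13. Pdk1, a kinase that inhibits pyruvate dehydrogenase, had 30.4, 34.4 and 36.2 CPM in KO and 39.4, 36.6 and 38.9 CPM in WT. Its KO libraries all lay below WT, with a log2 fold change of -0.19 ± 0.09 (edgeR adjusted p = 0.257). Pdk1, like many of the enzymes, is a HIF target, and why its sign differed from most of theirs was not tested.

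Hif1a itself was not called. It had 79.6, 109 and 136 CPM in KO replicates 2, 3 and 4, against 96.5, 107 and 82.2 CPM in WT replicates 1, 3 and 4. The KO libraries spanned the whole WT range, and the log2 fold change of 0.18 ± 0.19 (edgeR adjusted p = 0.592) came down to -0.01 without KO replicate 4. HIF is controlled mainly through protein stability, which transcript counts do not measure.

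Among the other HIF targets the oxygen sensor Egln1 had the smallest p. It had 49.6, 42.8 and 46.6 CPM in KO replicates 2, 3 and 4, against 38.9, 38.3 and 37.9 CPM in WT replicates 1, 3 and 4. The WT libraries were almost level and all KO libraries lay above them, at a log2 fold change of 0.27 ± 0.08 and a 95% interval from 0.08 to 0.46 (edgeR adjusted p = 0.104). Egln3, a hydroxylase with the same role, had 19.97, 20.8 and 20.9 CPM in KO and 17.9, 18.5 and 17.3 CPM in WT, again without overlap (log2 fold change 0.20 ± 0.09, edgeR adjusted p = 0.221). Ankrd37, a small ankyrin-repeat protein gene, had 2.11, 3.07 and 2.85 CPM in KO and 1.53, 1.99 and 1.36 CPM in WT. It had the largest fold change of the members tested, 0.72 ± 0.24 on the log2 scale (edgeR adjusted p = 0.119), from only 479 counts over the 6 libraries. It shares 349 exon bases with Lrp2bp and 57 with Ufsp2, both on the opposite strand, and since the strand setting of the counting is not stated, their reads cannot be told apart.

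P4ha1, a collagen prolyl hydroxylase subunit, had 22.9, 31.8 and 37.2 CPM in KO replicates 2, 3 and 4, against 24.6, 23.7 and 20.6 CPM in WT replicates 1, 3 and 4. KO replicate 2 lay inside the WT range, and the log2 fold change was 0.41 ± 0.17 (edgeR adjusted p = 0.172). It was 0.59 without KO replicate 2 (edgeR adjusted p = 0.0376) and 0.25 without KO replicate 4 (edgeR adjusted p = 0.471), and its adjusted p exceeded 0.05 with any of the other libraries left out. P4ha2, its paralog, stayed under 0.694 CPM in every library. Bnip3 and Bnip3l, which mark mitochondria for removal, had log2 fold changes of 0.29 ± 0.13 and -0.16 ± 0.17. Bnip3l, which clears mitochondria from maturing red cells, was the more abundant of the pair, between 286 and 371 CPM in KO and between 270 and 413 CPM in WT. Its highest libraries, KO replicate 2 and WT replicate 1, were also those with the highest erythroid marker sum of their group. Ddit4, a stress-induced brake on mTOR, had a log2 fold change of 0.06 ± 0.13, and Adm lay between 0.140 and 0.267 CPM in KO and between 0.0981 and 0.191 CPM in WT.

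Set side by side, the enzymes and the other HIF targets among the members had similar centres. The median log2 fold change was 0.33 over 16 enzymes, of which 13 were positive, and 0.28 over 8 other HIF targets tested, of which 7 were positive. Among those 8, Ankrd37 and P4ha2 rested on only 479 and 95 counts. A further list of HIF targets outside the members, 27 tested, had a median of 0.08, with 17 positive and 10 negative. The 6 transporters and flux regulators had a median of 0.20, with 4 positive. At an unadjusted p under 0.05, 9 enzymes were higher and 1 lower, and 3 other HIF targets were higher and 0 lower, beside 11.7% and 12.2% of all genes. The higher pay-off enzyme levels were most marked in KO replicates 3 and 4. Centred on the 6 libraries, the median log2 level of the pay-off enzymes was -0.01, 0.25 and 0.36 in KO replicates 2, 3 and 4, against -0.21, -0.10 and -0.28 in WT replicates 1, 3 and 4. For the other HIF targets the same measure was 0.07, 0.07 and 0.19 in KO and -0.11, -0.09 and -0.19 in WT, so that KO replicate 2 stood level with KO replicate 3. The difference between the 2 groups of genes was not tested.

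**Figure D4:**
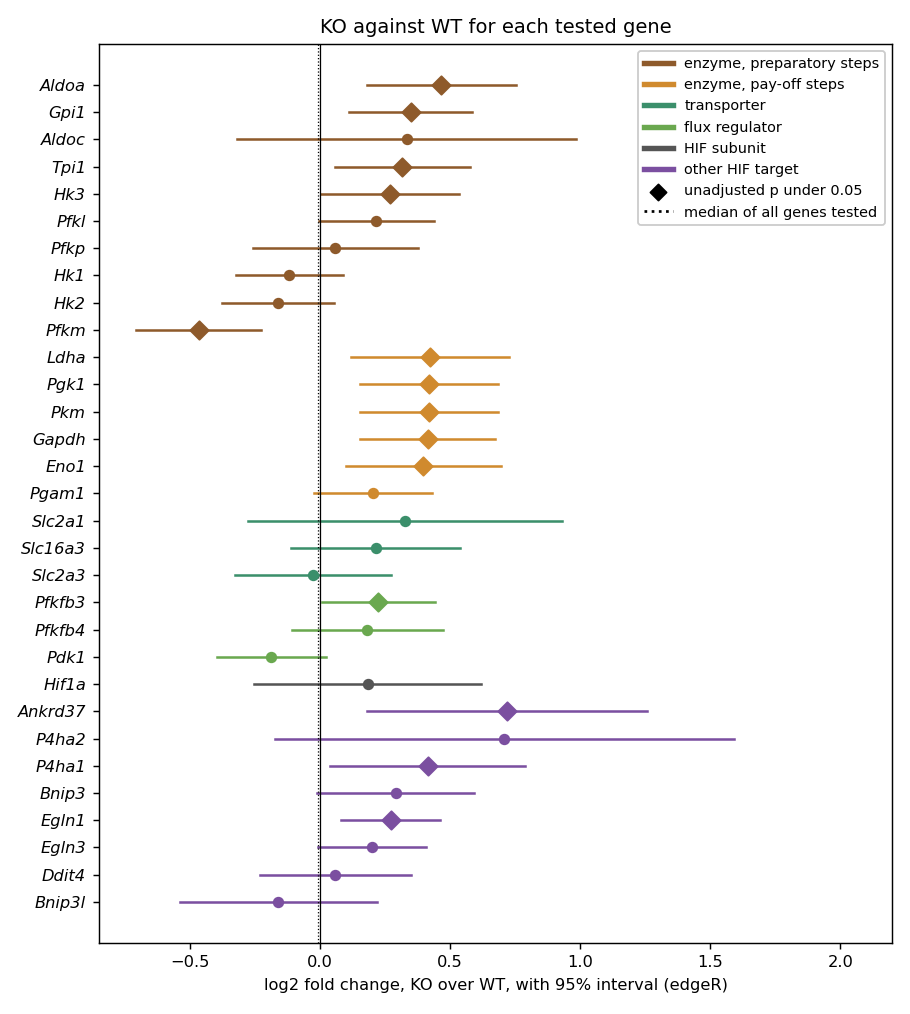
Log2 fold change (KO over WT, edgeR) of the 31 genes tested with 95% intervals, coloured by role, with diamonds for an unadjusted p under 0.05. The pay-off enzymes Ldha, Pgk1, Pkm, Gapdh and Eno1 line up between 0.40 and 0.42, Pfkm lies at -0.47, and Ankrd37 at 0.72 has a wide interval.

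The deleted locus, Mir181a-2 and Mir181b-2, makes miR-181a and miR-181b, so the members' 3' ends were searched for their sites. Levels of the mature microRNAs were not measured here, so how much of them remained in KO is not known. Both microRNAs share the seed, bases 2 to 8, shown in capitals as RefSeq gives them (GRCm38.p6).
mmu-miR-181a-5p: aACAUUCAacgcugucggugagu
mmu-miR-181b-5p: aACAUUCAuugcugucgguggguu
The longest annotated 3' UTR of each gene (GENCODE M21) was used. A match of 7 or 8 letters was present in 8 of 32 members (25.0%), beside 21% of all coding genes, and a full 8mer in 2 (6.2%), beside 5.3%. The members with an 8mer were Slc2a3 and Ddit4, whose sites read as follows, with the 8mer in capitals.
Slc2a3, chromosome 6: ataaaacttcTGAATGTAtgtgtcatgt
Ddit4, chromosome 10: acagactgcaTGAATGTAagagtaggaa
Their log2 fold changes were -0.03 ± 0.13 and 0.06 ± 0.13. The 7-letter matches lay in Adm, Pfkl, Egln1, Pkm, Pfkfb4 and Pfkp, with Slc2a3 holding a second match of this kind. Their log2 fold changes ran from 0.06 for Pfkp to 0.42 for Pkm among those tested. The enzymes Aldoa, Gapdh, Pgk1 and Ldha had no match.

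Neighbouring pathways were read from 6 further lists of 105 genes, of which 98 were tested, 1 was called higher and 3 were called lower in KO, beside 0.938% and 1.52% of all genes. Other glycolytic isoenzymes and transporters leaned the opposite way to the members, with a median of -0.15 over 21 genes. Pklr, the pyruvate kinase of red cells and liver, fell to 31.96 CPM in KO libraries, against 51.6 CPM in WT libraries (log2 fold change -0.69 ± 0.10, edgeR adjusted p = 0.0184), while Pkm in the same libraries had 0.42. Pfkfb2, another maker of the phosphofructokinase activator, fell to 11.4 CPM in KO, against 16.9 CPM in WT (-0.57 ± 0.12, edgeR adjusted p = 0.0491). Erythroid markers were lower on average in KO, as given above, and their part in the Pklr value was not tested. Both calls were lost without KO replicate 4, without WT replicate 1 and without WT replicate 4, and that for Pfkfb2 also without KO replicate 2 or WT replicate 3.

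The pentose phosphate pathway, which draws on glucose 6-phosphate to make NADPH for the neutrophil oxidative burst, had a median of 0.28 over 10 genes. Rpe, ribulose phosphate epimerase, rose to 100.3 CPM in KO, against 73.9 CPM in WT (log2 fold change 0.44 ± 0.09, edgeR adjusted p = 0.0435). Its call was lost without KO replicate 4, and without WT replicate 1, 3 or 4. Glycogen genes had a median of 0.31 over 12 genes with 0 called in edgeR. At an unadjusted p under 0.05, 8 were higher and 1 lower, beside 11.7% and 12.2% of all genes. Gyg, the glycogen primer glycogenin, and Ugp2, which activates glucose for storage, had the smallest p (log2 fold changes 0.51 ± 0.13 and 0.38 ± 0.10, edgeR adjusted p = 0.0666 and 0.0817).

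Genes of pyruvate entry into mitochondria had a median of 0.06 over 14. Pcx, pyruvate carboxylase, fell to 14.0 CPM in KO, against 23.7 CPM in WT (log2 fold change -0.76 ± 0.16, edgeR adjusted p = 0.0454). Its call was lost without KO replicate 3 or 4 and without WT replicate 1 or 4. The HIF machinery had a median of 0.09 over 14 genes with 0 called in edgeR. At an unadjusted p under 0.05, 7 were higher and 1 lower, beside 11.7% and 12.2% of all genes. Hif3a, a HIF-alpha paralog, and Egln2, the remaining prolyl hydroxylase, had the smallest p (log2 fold changes -0.81 ± 0.24 and 0.28 ± 0.09, edgeR adjusted p = 0.0982 and 0.102). Further HIF targets, 27 tested, had a median of 0.08 with 0 called in edgeR and 4 higher and 3 lower at an unadjusted p under 0.05, near the 11.7% and 12.2% of all genes. Kdm3a, a histone demethylase, and Anxa2, annexin A2, led with log2 fold changes of -0.30 ± 0.08 and 0.48 ± 0.14 (edgeR adjusted p = 0.0757 and 0.0945). Over the 6 lists 14 genes passed in DESeq2, 9 of them higher, and 8 in limma, 4 of them higher.

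**Figure D5:**
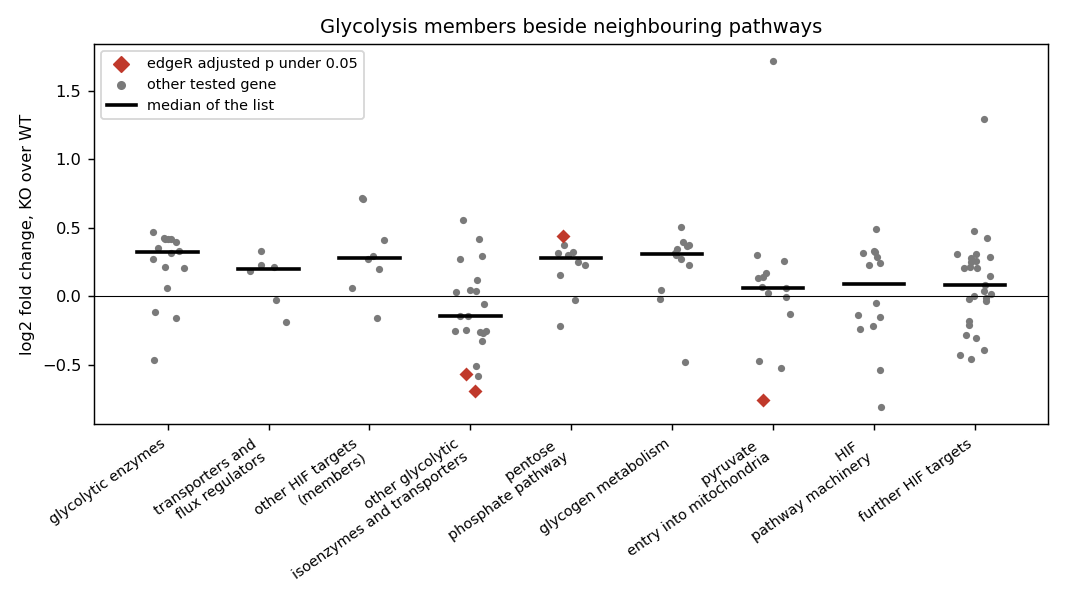
Log2 fold change (KO over WT, edgeR) of each tested gene in 3 groups of members and 6 neighbouring lists, with bars for list medians and red diamonds for genes past the threshold. Enzymes (median 0.33), pentose phosphate (0.28) and glycogen genes (0.31) centre above 0, other glycolytic isoenzymes and transporters at -0.15, and the 4 called genes are Pfkfb2, Pklr, Rpe and Pcx.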

How the data were processed

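For 6 libraries of polyA-selected RNA the authors deposited unnormalised counts of reads per Ensembl gene. Trimmomatic 0.36, STAR 2.5.2b, featureCounts, Subread 1.5.2 and the build GRCm38 are named in the submitters' processing notes, without order or role. Annotation release, strand setting and the treatment of multi-mapping reads were not given in the sources used here. Samples were grouped by genotype as labelled. Identifiers were matched to GENCODE M21 (GRCm38), where 49056 of 49315 had a symbol. Unmatched rows held at most 0.0195% of counts and stayed out of named results.

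Counts were tested as deposited, over all genes, with edgeR 4.0.16 (R 4.3.3): TMM scaling, filterByExpr by group, robust quasi-likelihood fit, two-sided, Benjamini-Hochberg adjustment, threshold 0.05. Isoenzyme shares used the exact permutation test of SciPy 1.17.1. The procedure was tested on simulated counts. Alternatives were other scalings and filters, DESeq2 1.42.0, limma 3.58.1, a replicate block, covariates, and each library left out. Values per library are given in full for members with an unadjusted p under 0.05, for Hif1a and for the member with the smallest p of each role; of each further list, every called gene, or otherwise the 2 with the smallest p, are named. Egln3, Pdk1 and other members were added for their roles after their values were seen. The members and lists were chosen with earlier results of these data known. No 2 libraries were alike within sampling noise.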

Additional observations from a re-analysis of the deposited data

How the results depend on the processing

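Over 495 values of the 31 members under the alternatives, 456 kept their direction and stayed uncalled. A further 24 passed the threshold that they had missed, and 15 changed sign. No call could be lost, since 0 members were called over all libraries. The changes of sign concerned 6 members. Pfkp was -0.0135 with library totals only and -0.0655 with a term that marks the libraries whose Xist exceeded 1 CPM (the Xist covariate). Slc2a3 was 0.0842 with the length and GC trend removed and 0.0202 with the Xist covariate, Ddit4 was -0.0141 with library totals and -0.0144 in limma, and Hk1 was 0.0222 with the length and GC trend removed. With a library left out Pfkp lay between -0.0239 (without WT replicate 4) and 0.211 (without KO replicate 2), Slc2a3 between -0.146 and 0.108 (without WT replicate 3), Ddit4 between -0.0723 (without WT replicate 3) and 0.19, Aldoc between -0.00369 (without KO replicate 3) and 0.581, and Hif1a between -0.0106 (without KO replicate 4) and 0.368. The cause was not tested.

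The number of members called, 0 over all libraries, was 1 with library totals only, 4 with no filter, 1 at a mean log2 CPM of at least 1, 1 with the replicate block, 8 in DESeq2, 5 in limma and 1 without haemoglobin, mitochondrial and immunoglobulin genes. All were enzymes except P4ha1 under the replicate block. Enzymes called were thus 1, 4, 1, 8, 5 and 1 in the other fits, and other HIF targets called 1 with the block. Leaving out a library gave between 0 and 2 members, 0 and 1 enzymes, and 0 and 1 other HIF targets: Pgk1 and P4ha1 without KO replicate 2, and Pfkm without WT replicate 3. Genes called over the neighbouring lists, 4 over all libraries, were 12 with no filter, 14 in DESeq2, 8 in limma, 1 with the Xist covariate, and between 0 and 8 with a library left out. Rpe and Pfkfb2 lost their calls with the replicate block, Rpe, Pfkfb2 and Pcx with the Xist covariate, and Pfkfb2 with the length and GC trend removed. Over all genes, 417 were called, 1492 with no filter, 1641 in DESeq2, 1057 in limma, 209 with the Xist covariate, and between 32 and 920 with a library left out (920 when KO replicate 3 was omitted, 32 for KO replicate 4, 33 for WT replicate 1, 199 for WT replicate 3 and 37 for WT replicate 4). The share of higher calls was 38.1%, but 17.8% with library totals and 49.4% with the length and GC trend removed and 52.2% in DESeq2.

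The median of the enzymes lay between 0.255 and 0.393 under the 16 alternatives run. That of the other HIF targets was 0.21 with library totals, which put the median of all genes at -0.08, and between 0.25 and 0.35 with a library left out. The KO and WT libraries share replicate numbers 3 and 4, whose deviations correlated at 0.21 and -0.14. With 3 libraries per group these values cannot show whether libraries of the same number belong together. The replicate block rests on those 4 libraries. With it 571 of all genes were called. No isoenzyme share moved by more than the spread between libraries when a library was left out. With 3 libraries per group arithmetic allows no larger move, so this does not show whether the shares are stable. Depth limits the members under 1 CPM most: Adm was not tested, and the interval of P4ha2 ran from -0.17 to 1.59.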
